A study of Xenopus laevis with 9 samples.

Results

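Cranial neural crest that had lost ADAM13 and received its cytoplasmic domain (MO13_C13) was compared with control crest (CMO) of Xenopus laevis, to describe which transcripts still differed from control. The members were the probe sets of the deposited value table with a mean of 6 or more (log2 intensity) over the 3 CMO and 3 MO13_C13 arrays, without those of adam33, the current name of the ADAM13 gene. They numbered 6747 of 15491 probe sets, with 8742 below that mean and 2 assigned to adam33. Of the members 4645 carried a single gene symbol (3922 different symbols), 120 carried several and 1982 none. The suffixes .L and .S mark the long and short chromosome copies of a gene in this allotetraploid frog.

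All embryos received 10 ng of a morpholino, an antisense oligonucleotide, at the one-cell stage and grew at 15 °C to stages 15 to 17, when the crest was dissected and its RNA extracted at once. CMO embryos carried a control morpholino, MO13 embryos a morpholino to ADAM13, and MO13_C13 embryos the ADAM13 morpholino together with mRNA for the ADAM13 cytoplasmic domain fused to GFP. The mRNA amount was 300 pg by the sample labels and 0.5 ng by the series text, and these statements conflict. No strain or genotype was given, and all groups carried a morpholino, while no group carried the fusion mRNA with the control morpholino. Each group had 3 arrays from 3 independent experiments, and a replicate number stood for the same experiment in every group. The injected mRNA was not restricted to the crest, and the explants were pieces of tissue rather than sorted cells, so fewer cells of a type and less RNA per cell cannot be told apart.

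ADAM13 is a transmembrane metalloprotease of the cranial neural crest, the cell population that leaves the dorsal neural folds and forms much of the face. Its extracellular part cleaves adhesion and matrix proteins, and in Xenopus its cytoplasmic part is also found in the nucleus. A morpholino acts on the transcript it pairs with, so the amount of that transcript on an array need not report the knockdown.

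The crest label was checked against marker genes. Of 10 crest markers 8 were found, as 11 gene copies of which 9 were members, and their mean level per array lay between 7.66 and 7.85 (log2) in CMO and between 7.49 and 7.70 in MO13_C13. Muscle and mesoderm markers lay between 1.45 and 1.68 in CMO and between 1.45 and 1.49 in MO13_C13, with none of 8 copies a member. Of these the troponin gene tnnt3.S, at a mean of 2.98, differed by -1.12, -0.88 and -1.36 in experiments 1, 2 and 3. It was the 1 muscle and mesoderm marker that passed (limma adjusted p = 0.0172). The longer list of mesoderm, muscle and notochord genes did hold members, ckm.L at a mean of 8.59, chrd.1.S at 7.35 and gata6.L at 6.22. The low markers thus do not show that every transcript of that list was absent. Blood and endoderm markers were as low as the muscle and mesoderm markers, between 1.40 and 1.57 in CMO and between 1.40 and 1.56 in MO13_C13. Neural plate markers were present in every array, at 7.56 to 7.79 in CMO and 7.84 to 7.94 in MO13_C13. Epidermal markers lay at 4.02 to 5.63 in CMO and 4.89 to 5.38 in MO13_C13. That mean joined dim copies, such as krt12.6.S at 1.16 over the 6 arrays, with bright ones. The brightest, krt70.S at 11.81, lay above the brightest crest copy, tfap2a.L at 10.66. The epidermal mean differed by 0.91, 1.09 and -0.75 in experiments 1, 2 and 3. In experiment 3 the mean was thus higher in the control, with 7 of 11 epidermal copies lower in MO13_C13 and 4 higher. Among them itln1.L, a gene of epidermal goblet cells, differed by 1.46, 3.55 and -3.86 in the 3 experiments, while grhl3.L, an epidermal transcription factor gene at a mean of 2.56, differed by 0.93, 0.72 and 0.75 and was the 1 epidermal marker that passed (limma adjusted p = 0.0287). Of 3 markers of the cement and hatching glands 1 was found, the cement gland gene agr2 in 2 copies, so no hatching gland marker was measured. The mean of the agr2 copies was low, at 1.44 to 1.96 in CMO and 1.74 to 3.18 in MO13_C13, and differed by -0.11, 1.23 and 1.05. The adam33.L probe set averaged 3.64 in CMO, 4.34 in MO13 and 10.07 in MO13_C13, so the arrays labelled with the fusion mRNA held a transcript that this probe set detects. The other adam33 probe set, adam33.S, averaged 1.56 in CMO, 1.43 in MO13 and 1.55 in MO13_C13. The authors' deposited table titles it metalloprotease/disintegrin xMDC13. The array medians ran from 4.88 to 5.07 and arrays of a group correlated at 0.979 to 0.991 across probe sets.

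Among the members 59 were higher and 80 lower in MO13_C13 than in CMO by limma's moderated test, with experiment as a block and Benjamini-Hochberg adjustment over all 15491 probe sets (adjusted p under 0.05). The strongest rises were in riok3 and map2k1, which encode protein kinases, in dusp18, which encodes a phosphatase, and in the mRNA export gene nxf1. The strongest falls with a gene symbol were in mios, tecr, nupr1 and polr2i, and a pair of probe sets that the authors' deposited table titles Riddle 2 and Riddle 3 /// Riddle 4 fell further. The test called 1.76% of all probe sets and 2.06% of the members, so members passed at close to the rate of the whole table. By direction, 0.874% of members were higher against 0.736% of all probe sets, and 1.19% were lower against 1.02%. At an unadjusted p under 0.05 stood 1223 members, or 18.1%, against 16.1% of all probe sets. Of these members 629 were higher and 594 lower, and the unadjusted counts of the gene lists below are to be read beside them. Below the mean of 6, 132 of 8742 probe sets passed, or 1.51%.

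Rises that passed spanned 0.56 to 1.92 (log2) with a median of 0.92, and 21 of the 59 exceeded 1, a 2-fold difference. Falls that passed spanned 0.55 to 2.61 in size with a median of -0.88, and 29 of the 80 exceeded 1. Every one of the 139 had the same sign in 3 of 3 experiments, as did 43.1% of all members and 38.9% of all probe sets. The 3 arrays of each group did not overlap for 53 of the higher and 62 of the lower probe sets, against 14.1% of all members and 12.6% of all probe sets. Most members moved little, with a median size of 0.153 and a median standard error of 0.14. A higher value in MO13_C13 was seen in 55.5% of members against 49.4% of all probe sets. Of the 75 members that differed by over 1, 50 passed.

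The share that passed fell with the level. It was 3.71% of 1214 members between 6 and 7, 3.22% of 1461 between 7 and 8 and 1.84% of 1580 between 8 and 9. Above these it was 0.896% of 1227 between 9 and 10, 0.763% of 786 between 10 and 11 and 0.209% of 479 from 11 to 15. The brightest transcripts differed least, although their median standard error was the smallest, 0.105 against 0.169 in the dimmest class. The only passing probe set above 11 was rbm8a.L, described below with the RNA-handling genes. For 11 of the higher and 10 of the lower probe sets the mean of 1 group was itself under 6. Such rises included riok3.S, dusp18.L and nxf1.S, with CMO means of 5.37, 5.21 and 5.97. Also among them were ift57.S (5.77), sec23ip.S (5.83), ap3s1.S (5.86) and atg5.L (5.99). Such falls included mios.S and c22orf39.L, with MO13_C13 means of 5.28 and 5.83. All of these reached the mean of 6 only through the group where they were high, and the list shares below include such members. At the limit of the rule, pter.L was the member nearest to it, with a mean of 6 and a difference of -0.57, and sh3glb2.L lay just outside at 5.998 with a difference of 0.14.

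**Figure D1:**
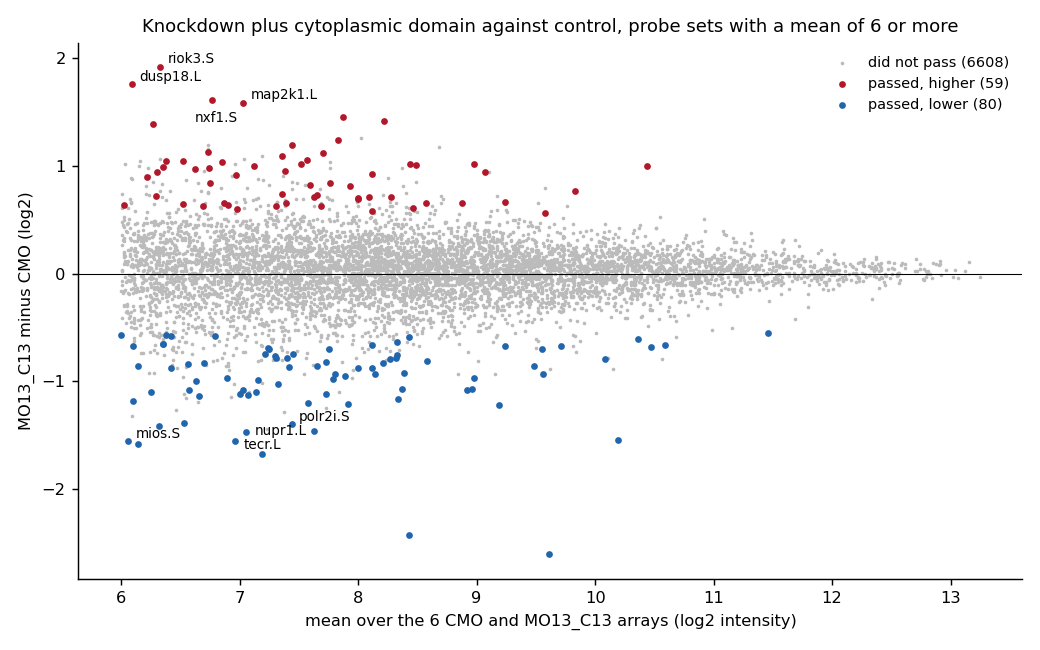
Difference between MO13_C13 and CMO (log2, vertical) against the mean over the 6 arrays (log2 intensity, horizontal) for the 6747 members. Each point is a probe set, red and blue points are the 59 higher and 80 lower that passed, and the 2 largest falls, at -2.61 and -2.43, lie apart from the rest.

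The count rests on the pairing by experiment and on all 3 experiments. Without the block 9 members passed, 6 higher and 3 lower, and 536 stood at an unadjusted p under 0.05. With experiment 1 left out 9 passed, with experiment 3 left out 5, and with experiment 2 left out 0, where 670 members stood at an unadjusted p under 0.05. Without CMO replicate 1, 2 or 3 the counts were 28, 16 and 14. Leaving out MO13_C13 replicate 1, 2 or 3 gave 18, 3 and 24. The MO13 arrays entered through the shared estimate of spread, and without MO13 replicate 1, 2 or 3 the counts were 210, 61 and 100. None passed in all 12 fits that left out an array or an experiment. Called most often were nxf1.S and a probe set without a symbol that the authors' deposited table titles as similar to a fuse-binding protein-interacting repressor, each in 11 of 12. Other probe sets without a symbol passed in up to 9 of 12, and riok3.S, chmp5.S and tecr.L, next after nxf1.S among those with a symbol, in 7 of 12.

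**Figure D2:**
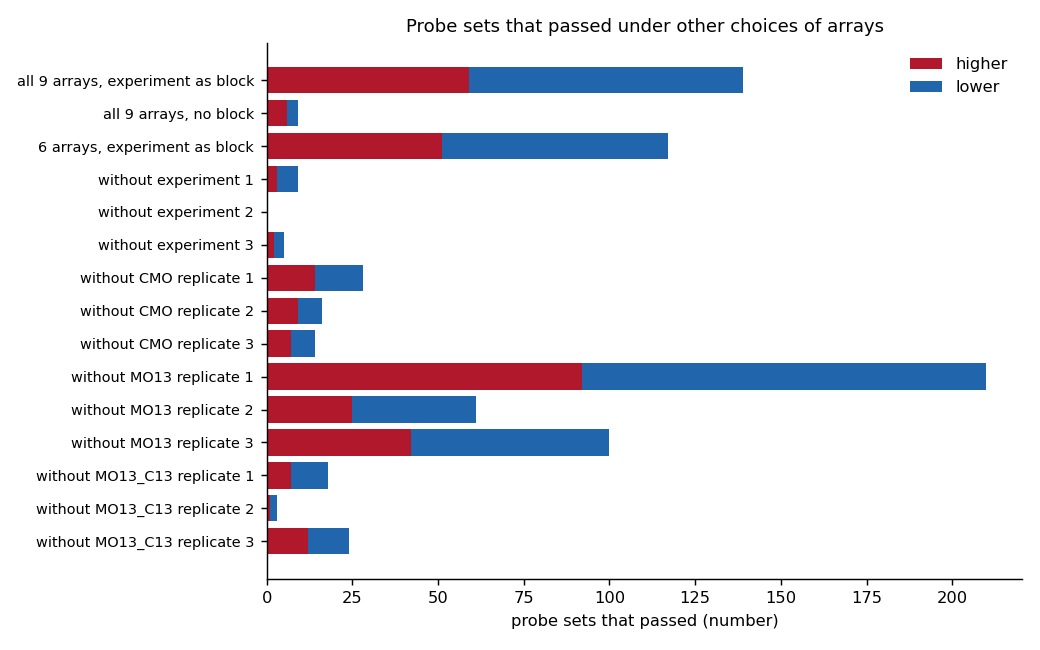
Number of member probe sets that passed (horizontal) under each choice of arrays (vertical), with the higher in red and the lower in blue. The bar for all 9 arrays with experiment as block reaches 139, the bar without the block 9, and the bar without experiment 2 is empty.

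The riok3 gene encodes a RIO-family kinase with a role in small ribosomal subunit maturation in human cells. The riok3.S probe set read 5.81, 4.96 and 5.35 in CMO (experiments 1, 2 and 3, log2) and 7.77, 7.10 and 7.0 in MO13_C13. All MO13_C13 arrays lay above all CMO arrays, and the rise was 1.92 (SE 0.22, limma adjusted p = 0.012), or 3.78-fold. Its .L copy read 7.02, 7.01 and 7.40 in CMO and 8.77, 8.11 and 8.93 in MO13_C13. That copy rose by 1.46 (SE 0.17, limma adjusted p = 0.0127), so both copies were higher with no overlap of the groups. The authors' deposited table gives the riok3.S probe set a title of weak similarity to a complement protein, so its identity rests on the platform's gene annotation.

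The dusp18 gene encodes a dual-specificity phosphatase. Its dusp18.L probe set read 5.03, 5.65 and 4.96 in CMO and 7.05, 6.81 and 7.06 in MO13_C13, and rose by 1.76 (SE 0.20, limma adjusted p = 0.0123). MEK1, which activates the kinase ERK, is the product of map2k1. The map2k1.L probe set read 7.11, 5.76 and 5.84 in CMO and 8.15, 7.81 and 7.51 in MO13_C13, a rise of 1.59 (SE 0.20, limma adjusted p = 0.0173). Experiment 1 had the highest control value of map2k1.L, and the lowest MO13_C13 array still exceeded it. Of the 27 members of the list of FGF and MAP kinase signalling, dusp18.L and map2k1.L passed as higher and 0 as lower (7.41% against 2.06% of all members), and the list median was 0.09 against 0.027 over all members. In the same list hipk3.L, a homeodomain-interacting kinase, differed by -1.29 without passing (SE 0.29, limma adjusted p = 0.0789).

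Pyruvate dehydrogenase kinase 4, which switches off the entry of pyruvate into the citric acid cycle, is encoded by pdk4. Its pdk4.S probe set read 7.18, 7.11 and 7.33 in CMO and 8.25, 8.33 and 8.77 in MO13_C13, a rise of 1.24 (SE 0.16, limma adjusted p = 0.0172). The pdk4.L copy, at a mean of 3.40, differed by -0.46 and did not pass. The prenylated tyrosine phosphatase gene ptp4a2 read 6.93, 7.48 and 7.01 in CMO and 8.27, 8.30 and 8.21 in MO13_C13 for its .S copy and rose by 1.12. Smaller rises were those of ptpn2.L, a tyrosine phosphatase gene, by 0.63, of prkar1a.S, the regulatory subunit of protein kinase A, by 0.64, and of the Ras-like GTPase gene rap2a.S by 1.04. The groups did not overlap for any of these 4 genes. A further probe set of rap2a.S differed by 0.50 and did not pass.

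**Figure D3:**
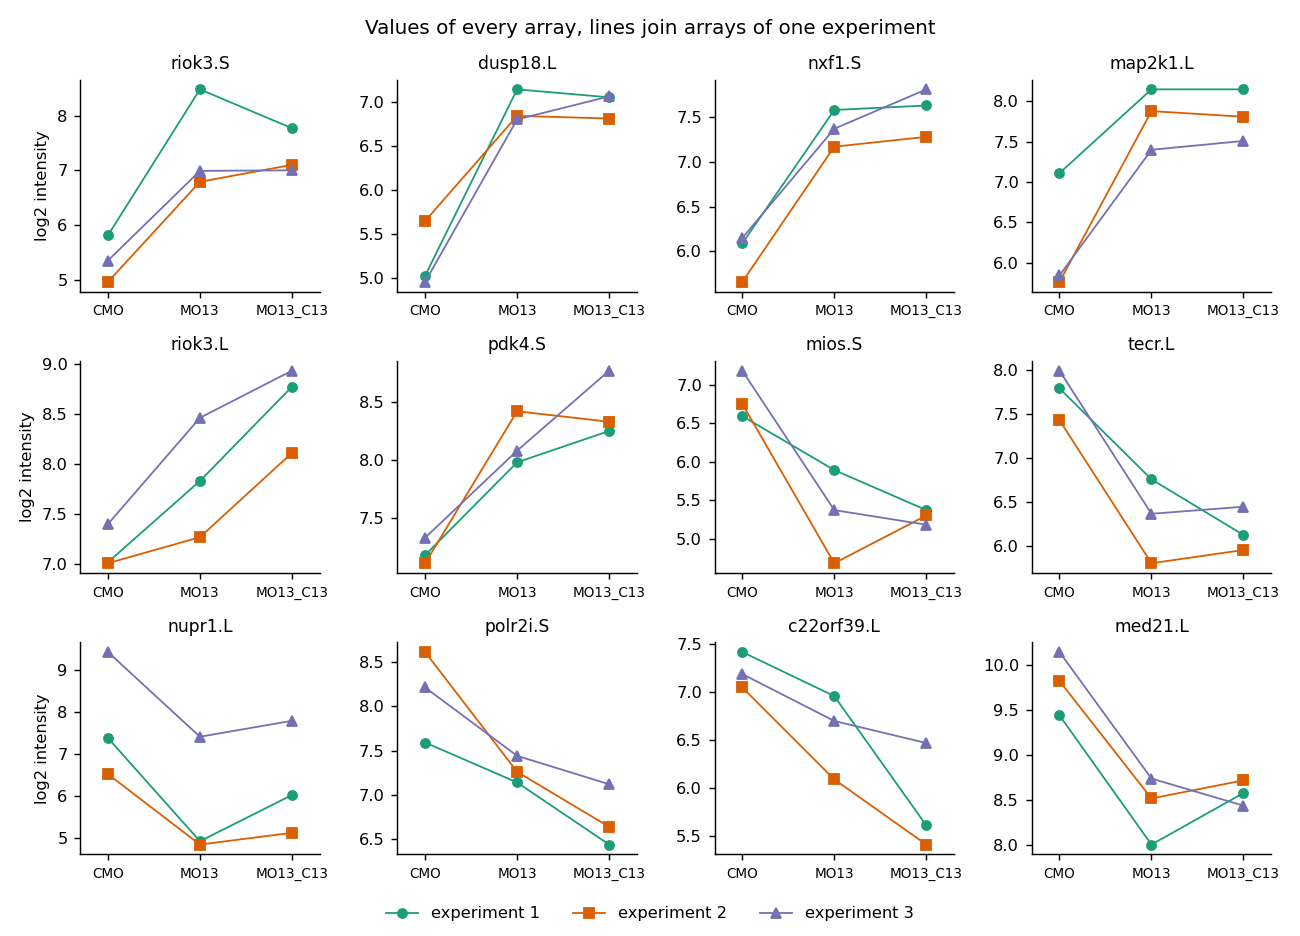
Log2 intensity (vertical) of the 6 genes with an informative symbol and the largest rises, and the 6 with the largest falls, in CMO, MO13 and MO13_C13 (horizontal). Each line joins the 3 arrays of an experiment, and for riok3.S, dusp18.L, nxf1.S and map2k1.L the MO13 arrays already lie above their controls.

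Genes of mRNA export and splicing moved in both directions. The receptor that carries mRNA through the nuclear pore is encoded by nxf1. Its nxf1.S probe set read 6.09, 5.66 and 6.15 in CMO and 7.63, 7.28 and 7.81 in MO13_C13. The rise of 1.61 (SE 0.11, limma adjusted p = 0.00455) had the smallest standard error among the 4 largest rises, and the groups were apart by over 1. The other nxf1.S probe set, at a mean of 5.32 and so outside the members, differed by 0.16. The export helicase gene ddx39b.L, whose product loads export factors on mRNA, rose by 0.71 (limma adjusted p = 0.0299), from 7.80, 7.75 and 8.24 to 8.58, 8.32 and 9.01. In contrast rbm8a.L, the Y14 subunit of the exon junction complex, read 11.71, 11.77 and 11.72 in CMO and 11.19, 11.31 and 11.06 in MO13_C13. Its difference of -0.55 (SE 0.10, limma adjusted p = 0.0462) was the smallest that passed. The rbm8a.S copy, at a mean of 10.46, differed by -0.12 and did not pass. The nuclear RNA-binding gene hnrnpu fell in its hnrnpu.S probe set by 0.93, from 10.24, 9.88 and 9.96 to 9.59, 8.75 and 8.95, while 3 other hnrnpu.S probe sets differed by -0.05, 0.02 and 0.07. The gene luc7l2, whose product associates with the U1 snRNP, also fell by 0.93 in its .S copy (limma adjusted p = 0.0434). Over the list of splicing and mRNA export, 2 of 213 members passed as higher (nxf1.S and ddx39b.L) and 2 as lower (hnrnpu.S and rbm8a.L), 1.88% against 2.06% of all members, with a median of 0.04.

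Parts of the transcription machinery were among the falls. Among them were genes of small subunits of larger complexes, RPB9 of RNA polymerase II by polr2i, a Mediator subunit by med21 and a subunit of the complex that activates small nuclear RNA genes by snapc5. The med21.L probe set read 9.44, 9.82 and 10.14 in CMO and 8.58, 8.72 and 8.44 in MO13_C13, a difference of -1.22 (SE 0.18, limma adjusted p = 0.0266). The snapc5.L probe set read 8.16, 8.41 and 8.31 in CMO and 7.09, 7.29 and 7.14 in MO13_C13, a difference of -1.12 (SE 0.15, limma adjusted p = 0.0202). The groups did not overlap for snapc5.L, whereas its .S copy differed by 0.18. A polr2i.S probe set read 7.59, 8.61 and 8.21 in CMO and 6.44, 6.64 and 7.12 in MO13_C13, a difference of -1.40 (SE 0.19, limma adjusted p = 0.0218). The annotation gives polr2i.S to 10 further probe sets, which differed by -1.02 to 0.22 with 3 of 10 lower and 0 passing, so it is uncertain that this probe set measures polr2i.

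A rise was found for gtf3a.L, which encodes TFIIIA, the factor that starts 5S ribosomal RNA transcription. It read 6.31, 5.88 and 6.31 in CMO and 7.40, 7.10 and 7.40 in MO13_C13, a rise of 1.13 (SE 0.12, limma adjusted p = 0.0114). The arginine methyltransferase gene prmt1.L rose by 0.73 (limma adjusted p = 0.0312), and wdr77.S, whose product works with the methyltransferase PRMT5, by 0.67 (limma adjusted p = 0.0372). Another prmt1.L probe set differed by 0.00 and the prmt1.S copy by -0.01. In the list of chromatin and transcription machinery, prmt1.L passed as higher and polr2i.S and med21.L as lower among 142 members, 2.11% against 2.06% of all members. The snapc5.L probe set was not in that list. Of the list's members 90 had a higher value, or 63.4% against 55.5% of all members. Their median was 0.05, and the unadjusted p was under 0.05 for 7 higher and 7 lower, so the list did not fall as a whole. The retinoid X receptor gene rxrb.S fell by 0.87 (limma adjusted p = 0.0292), but its groups overlapped, with 8.52, 7.84 and 7.21 in CMO and 7.53, 7.25 and 6.18 in MO13_C13. Within each experiment it was lower. The ribosomal protein gene rps6.S fell by 0.88 in a probe set at a mean of 8.12, and another rps6.S probe set at a mean of 11.23 and rps6.L at 11.36 differed by 0.01 and 0.03. That was the only passing probe set among 86 of cytosolic ribosomal proteins, 1.16% against 2.06% of all members, and their median was 0.01. In the list of translation factors and tRNA ligases 0 of 118 members passed, also against 2.06%, and the unadjusted p was under 0.05 for 3 higher and 3 lower.

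Genes of membrane traffic rose where they passed. In the list of autophagy, endosome and lysosome genes 5 of 83 members were higher and 0 lower, 6.02% against 2.06% of all members, with a median of 0.09, and the unadjusted p was under 0.05 for 15 higher and 5 lower. The ESCRT-III subunit gene chmp5.S, needed to form vesicles inside endosomes, read 6.67, 7.41 and 7.03 in CMO and 7.97, 8.28 and 8.04 in MO13_C13, a rise of 1.06 (SE 0.11, limma adjusted p = 0.0114). The autophagy gene atg5.L, whose product helps attach lipid to LC3, read 6.12, 6.04 and 5.82 in CMO and 6.86, 7.04 and 7.24 in MO13_C13, a rise of 1.05 (SE 0.14, limma adjusted p = 0.0214). The groups did not overlap for either gene.

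The other 3 were the small sigma subunits of clathrin-type adaptor complexes. The AP-3 subunit gene ap3s1.S read 5.91, 6.03 and 5.64 in CMO and 7.16, 6.64 and 6.93 in MO13_C13 and rose by 1.05 (limma adjusted p = 0.0253). Its relative of the plasma membrane complex AP-2, ap2s1.S, read 5.87, 6.24 and 6.31 in CMO and 6.85, 6.84 and 7.63 in MO13_C13 and rose by 0.97 (limma adjusted p = 0.0434). The AP-1 subunit gene ap1s1.L rose by 0.63 (limma adjusted p = 0.0473), from a mean of 6.38 to 7.0. All 3 had MO13_C13 arrays wholly above the CMO arrays. In CMO atg5.L averaged 5.99 and ap3s1.S 5.86, so both were members only through their MO13_C13 values.

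In the list of endoplasmic reticulum, Golgi and glycosylation genes 3 of 138 members were higher and 0 lower, 2.17% against 2.06% of all members. Of those 138, 97 had a higher value, or 70.3% against 55.5% of all members, and the median was 0.10 against 0.027. The unadjusted p was under 0.05 for 24 higher and 3 lower, against 629 and 594 of the 6747 members. The gene rpn2.S, which encodes ribophorin II of the complex that adds N-linked sugars, read 8.51, 8.44 and 8.47 in CMO and 9.48, 9.41 and 9.59 in MO13_C13. Its rise of 1.02 (SE 0.12, limma adjusted p = 0.0144) was nearly the same in each experiment. The gene sec23ip.S, whose product binds the COPII coat, rose by 0.94 (limma adjusted p = 0.0273), with control values of 6.44, 5.79 and 5.25 that overlapped the 7.21, 6.65 and 6.43 of MO13_C13. The cargo receptor gene tmed5.L rose by 0.71 (limma adjusted p = 0.048). Just short of the threshold stood syvn1.S, a ubiquitin ligase gene of the endoplasmic reticulum, at 0.68 (limma adjusted p = 0.0501).

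Metabolic and mitochondrial genes were divided. The very-long-chain fatty acid reductase gene tecr.L read 7.79, 7.43 and 7.99 in CMO and 6.13, 5.96 and 6.45 in MO13_C13. Its difference of -1.56 (SE 0.16, limma adjusted p = 0.0114) left the groups nearly 1 log2 unit apart. The phospholipid acyltransferase gene lpcat3.L fell by 0.86, while its .S copy differed by 0.16. The sphingolipid enzyme gene kdsr.L rose by 1.00 (limma adjusted p = 0.0287), from 6.79, 6.53 and 6.55 to 7.76, 7.53 and 7.59. In the respiratory chain, the complex I subunit gene ndufa8.L rose by 1.01 (limma adjusted p = 0.0462) and the complex III core gene uqcrc1.L by 0.58 (limma adjusted p = 0.0479). The copper chaperone gene cox17.L, which serves cytochrome c oxidase, fell by 0.86 (limma adjusted p = 0.0209), from 10.18, 9.86 and 9.69 to 9.40, 8.93 and 8.81. Its .S copy, at a mean of 8.87, differed by -0.06 and did not pass. The ndufa8.L, uqcrc1.L and cox17.L probe sets were the 3 passing members among 75 of the respiratory chain and ATP synthase, 4% against 2.06% of all members, with a median of 0.03. The mitochondrial list of ribosome, import and metabolism had 0 of 101 passing against 2.06% of all members, with an unadjusted p under 0.05 for 10 higher and 8 lower. Both probe sets of pfkfb1.S, a regulator of glycolysis, that were bright fell, by 0.61 and 0.68, and a dimmer one differed by -0.06. The glycolytic gene gapdh.L fell by 0.75 (limma adjusted p = 0.0411), from 7.72, 7.87 and 7.89 to 7.07, 7.01 and 7.15. The pyrimidine synthesis gene dhodh.L rose by 0.65 (limma adjusted p = 0.0484). These last 2 genes were the passing members among 54 of glycolysis, pentose phosphate and nucleotide synthesis, 3.7% against 2.06% of all members, with a median of 0.07.

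Cell cycle genes that passed were higher. The mitotic kinesin gene kif20b.S, which acts in cytokinesis, read 6.43, 6.98 and 7.11 in CMO and 7.94, 8.23 and 7.94 in MO13_C13, a rise of 1.20 (SE 0.15, limma adjusted p = 0.0173). Cyclin A2, which drives S phase, had its ccna2.S probe set at 7.69, 7.41 and 6.91 in CMO and 8.16, 8.38 and 8.0 in MO13_C13, a rise of 0.84 (limma adjusted p = 0.0473). The brighter ccna2.L copy, at a mean of 9.25, differed by 0.03 and did not pass. Among 152 members of the cell cycle and mitosis list 2 passed as higher (kif20b.S and ccna2.S) and 0 as lower, 1.32% against 2.06% of all members. The list median was 0.11 against 0.027 over all members, with 114 of 152 values higher, or 75% against 55.5% of all members. The unadjusted p was under 0.05 for 21 higher and 2 lower, against 629 and 594 of the 6747 members. The microtubule-severing gene katna1.S rose by 0.84. In the list of p53 response and DNA damage genes, ccng1.L, encoding cyclin G1, a p53 target in mammals, was the 1 of 19 that passed. That was 5.26% against 2.06% of all members, resting on a single probe set. It read 9.76, 10.05 and 10.00 in CMO and 10.84, 11.01 and 10.95 in MO13_C13, a rise of 1.00 (SE 0.11, limma adjusted p = 0.0116) at a high level, while the list median was -0.05. Another such gene, sesn1.L, differed by 1.02 without passing (limma adjusted p = 0.0501).

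Several falls concerned secreted, membrane or cytoskeletal proteins. Protease nexin 1, a secreted inhibitor of serine proteases, is encoded by serpine2. Its serpine2.L probe set read 8.40, 7.62 and 7.49 in CMO and 7.26, 6.92 and 6.24 in MO13_C13, a difference of -1.03 (SE 0.14, limma adjusted p = 0.0202). A dimmer serpine2.L probe set fell as well, by 0.90 (limma adjusted p = 0.0355), while the serpine2.S copy differed by 0.19. Myosin X, the filopodial motor that Xenopus crest cells need to migrate, is encoded by myo10. The myo10.2.S probe set read 9.43, 9.29 and 9.65 in CMO and 7.92, 8.45 and 8.76 in MO13_C13, a difference of -1.08 (SE 0.16, limma adjusted p = 0.0292). The groups did not overlap, and the lowest array was that of experiment 1. Properdin, a complement component, is encoded by cfp, and cfp.L read 8.69, 9.63 and 10.08 in CMO and 7.96, 8.69 and 8.85 in MO13_C13. Those groups overlapped, though each experiment was lower, by -0.97 on average (SE 0.17, limma adjusted p = 0.0411). The B7-family membrane protein gene cd276.S fell by 0.77 (limma adjusted p = 0.0434). Claudin 6, a tight junction protein of epithelia, rose in its cldn6.2.S copy by 0.94 (SE 0.12, limma adjusted p = 0.0172), from 8.24, 8.71 and 8.87 to 9.18, 9.66 and 9.79, and its .L copy differed by 0.34. It was the 1 passing member among 32 of the epidermis list, 3.12% against 2.06% of all members. The median of that list was 0.14, beside the epidermal marker differences of 0.91, 1.09 and -0.75 given above. Within the experiments cldn6.2.S was higher by 0.94, 0.95 and 0.92. The bright epidermal marker krt70.S differed by 0.03, 0.08 and 0.26, and the dim grhl3.L, at a mean of 2.56, by 0.93, 0.72 and 0.75. Of the 11 epidermal marker copies 8, 9 and 4 were higher in experiments 1, 2 and 3, and 3, 2 and 7 lower. The part of epidermal content in the rise of cldn6.2.S was not tested. The list of ciliated cell genes had 3 members, of which 1 passed, 33.3% against 2.06% of all members, resting on a single probe set. This was ift57.S, a gene of transport along the cilium. It rose by 0.90 (limma adjusted p = 0.0311), from 5.68, 5.35 and 6.27 to 6.37, 6.48 and 7.15. Its CMO mean was 5.77, so it was a member only through its MO13_C13 values. The mean of 2 ciliated cell markers, both below the level of the members, was higher by 0.25, 0.23 and 0.23 in the 3 experiments. Of these markers tekt4.S differed by 0.42, 0.40 and 0.56, and dnai1.L by 0.09, 0.06 and -0.09. The part of ciliated cell content in the rise of ift57.S was not tested. In the lists of gland genes with 2 members and of mesoderm, muscle and notochord with 3, 0 passed. Against 2.06% of all members, lists of this size may hold 0. The unadjusted p was under 0.05 for 0 gland members and for 1 of the mesoderm list, which was lower.

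The mios gene encodes a part of GATOR2, which passes amino acid signals to the kinase mTORC1. Its mios.S probe set read 6.59, 6.75 and 7.18 in CMO and 5.37, 5.30 and 5.18 in MO13_C13, a difference of -1.56 (SE 0.27, limma adjusted p = 0.0407). The stress-induced chromatin gene nupr1 had its nupr1.L probe set at 7.39, 6.53 and 9.44 in CMO and 6.03, 5.13 and 7.80 in MO13_C13. Its level differed more between experiments than between groups, yet it was lower by similar amounts within each, -1.47 on average (SE 0.18, limma adjusted p = 0.0148). The gene c22orf39.L differed by -1.39 (limma adjusted p = 0.0372) and spats2.S by -0.93 (limma adjusted p = 0.0172). The proteasome lid gene psmd6.L fell by 0.79 (limma adjusted p = 0.0196), and a probe set shared by psmd6.S and psmd6.L fell by 0.66. A probe set of psmd6.S alone, at a mean of 8.69, differed by -0.16 and did not pass. Only psmd6.L passed among 69 members of the proteasome and chaperonin list, 1.45% against 2.06% of all members. The median of that list was 0.13 with 50 values higher, or 72.5% against 55.5% of all members. The ubiquitin ligase gene rnf8.S, of the DNA damage response, fell by 0.86 (limma adjusted p = 0.0415). It was the 1 of 59 that passed in the list of ubiquitin ligases and conjugation, 1.69% against 2.06% of all members. Another rnf8.S probe set differed by -0.34 without passing. In the list of heat shock, immediate early and innate immune genes 0 of 22 passed, also against 2.06%, with an unadjusted p under 0.05 for 2 higher and 1 lower.

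**Figure D4:**
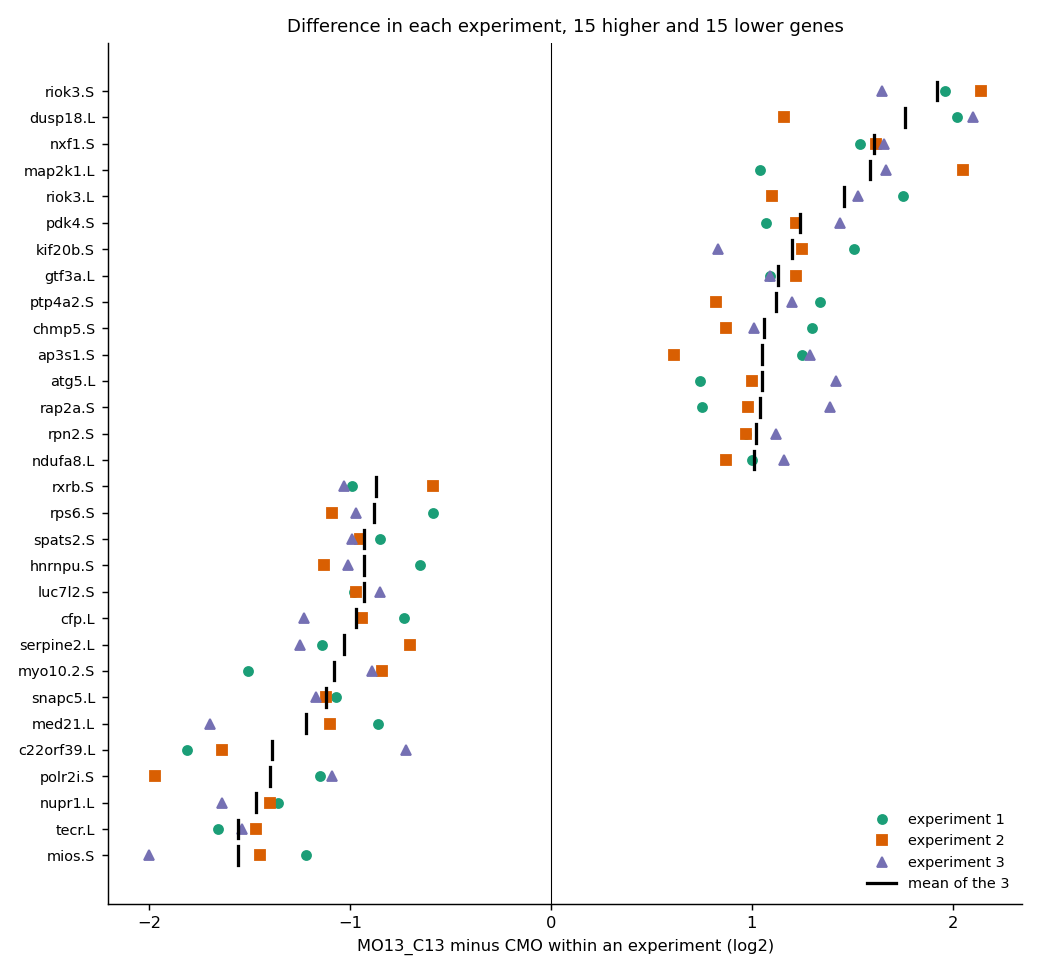
Difference between MO13_C13 and CMO within each experiment (log2, horizontal) for the 15 genes with the largest rises and the 15 with the largest falls among those with an informative symbol (vertical). Symbols are experiments and bars their mean, and all 3 symbols lie on the same side of 0 for every gene.

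The largest differences of all belonged to probe sets with no single symbol. The probe set titled Riddle 2 in the authors' deposited table read 11.14, 11.91 and 9.70 in CMO, 10.36, 10.63 and 7.08 in MO13, and 9.19, 9.99 and 5.73 in MO13_C13. It fell by 2.61 against control (SE 0.39, limma adjusted p = 0.0288), and the array of experiment 3 was the lowest in each group. The probe set that the authors' deposited table titles Riddle 3 /// Riddle 4 read 9.31, 10.30 and 9.31 in CMO and 6.99, 8.09 and 6.55 in MO13_C13, a difference of -2.43 (SE 0.28, limma adjusted p = 0.0123). Both stood lower in MO13_C13 than in MO13, by -1.05 (95% interval -1.97 to -0.14) and -0.74 (95% interval -1.39 to -0.10), and neither of these passed over all probe sets. The probe set with the similarity to a fuse-binding protein-interacting repressor in the authors' deposited table read 10.92, 11.14 and 10.83 in CMO and 9.53, 9.69 and 9.02 in MO13_C13. Its difference was -1.55 (SE 0.12, limma adjusted p = 0.0056), with -1.39, -1.45 and -1.81 in experiments 1, 2 and 3. Other titles in the authors' deposited table were a ZW10 interactor (-1.10), a retrovirus-related POL polyprotein (-1.46), the inner mitochondrial membrane translocase subunit 50 (1.09) and anterior pharynx defective 1a (1.02). Probe sets with no symbol made up 53.8% of the falls that passed, 22% of the rises, 29.4% of the members and 38.7% of all probe sets.

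In the neural crest list 0 of 41 members passed, against 2.06% of all members, a share at which a list of this size may hold 0. Of its members 25 were lower and 16 higher, so 39% had a higher value against 55.5% of all members. The median was -0.12, with an unadjusted p under 0.05 for 2 higher and 3 lower. The nuclear receptor gene nr2f1.L read 7.97, 7.74 and 7.81 in CMO and 7.51, 6.74 and 7.12 in MO13_C13, a difference of -0.72 (SE 0.14, limma adjusted p = 0.0552). The crest specifier foxd3.L read 9.01, 8.86 and 9.10 in CMO and 8.78, 8.22 and 8.35 in MO13_C13, a difference of -0.54 (SE 0.16, limma adjusted p = 0.153). The border gene pax3.L differed by 0.40 and lmo4.2.S by 0.31 in the other direction. In the list of crest adhesion and migration 0 of 46 passed, also against 2.06% of all members, with an unadjusted p under 0.05 for 2 higher and 5 lower. There the matrix gene fn1.S (fibronectin) differed by -0.72 (SE 0.21), its receptor subunit gene itga5.L by -0.63 (SE 0.18), the ephrin receptor gene epha2.L by -0.35 (SE 0.10) and the versican gene vcan.L by 0.87 (SE 0.22). The myo10.2.S probe set described above was in neither list.

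Neural plate genes had 0 of 36 members passing against 2.06% of all members, a median of 0.10 and an unadjusted p under 0.05 for 3 higher and 1 lower. The adhesion gene ncam1.L read 8.27, 7.85 and 8.23 in CMO and 8.53, 8.72 and 8.93 in MO13_C13, a difference of 0.61 (limma adjusted p = 0.0808), and 2 probe sets of the eye and forebrain gene pax6.L differed by 0.59 and 0.66. The neural marker mean moved in the same direction, by 0.05, 0.37 and 0.20 in the 3 experiments, while the crest marker mean differed by -0.11, -0.18 and -0.29. Single copies were divided. Of 6 neural copies 2, 5 and 5 were higher in experiments 1, 2 and 3, and 4, 1 and 1 lower. Of 11 crest copies 7, 5 and 9 were lower, and 4, 6 and 1 higher. The part of tissue content in these values was not tested. Other small signalling lists also had 0 passing, against the same 2.06% of all members. These were Wnt with 36 members, BMP and TGF-beta with 24, and Notch with 17, and at an unadjusted p under 0.05 they held 3 higher and 2 lower, 0 and 3, and 1 and 0. In the Wnt list tcf7l1.L, a repressor of Wnt targets, differed by 0.89 (SE 0.22, limma adjusted p = 0.0989) and the casein kinase gene csnk1d.S by 0.65 and 0.80 in a pair of probe sets. Calpain 8 is an intracellular protease whose transcript has been reported to depend on ADAM13 in Xenopus crest. Its capn8.3.L probe set read 7.75, 8.33 and 8.11 in CMO and 7.78, 7.49 and 7.5 in MO13_C13. It differed by -0.47 (SE 0.30, limma adjusted p = 0.507), with 0.03 in experiment 1 and -0.84 and -0.61 in the others. In MO13 it read 7.42, 6.13 and 6.63, a difference of -1.34 from CMO that did not pass (limma adjusted p = 0.0872). MO13_C13 minus MO13 was 0.86 (unadjusted 95% interval 0.17 to 1.56, limma adjusted p = 0.721). The capn8.1.L probe set, at a mean of 4.22 and so outside the members, differed by -0.31 between MO13_C13 and CMO. Of 3 members among calpains and calpastatin 0 passed, against 2.06% of all members, and 1 was lower at an unadjusted p under 0.05. Genes of ribosome assembly and the nucleolus had 0 of 108 passing against 2.06% of all members, with an unadjusted p under 0.05 for 10 higher and 5 lower.

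**Figure D5:**
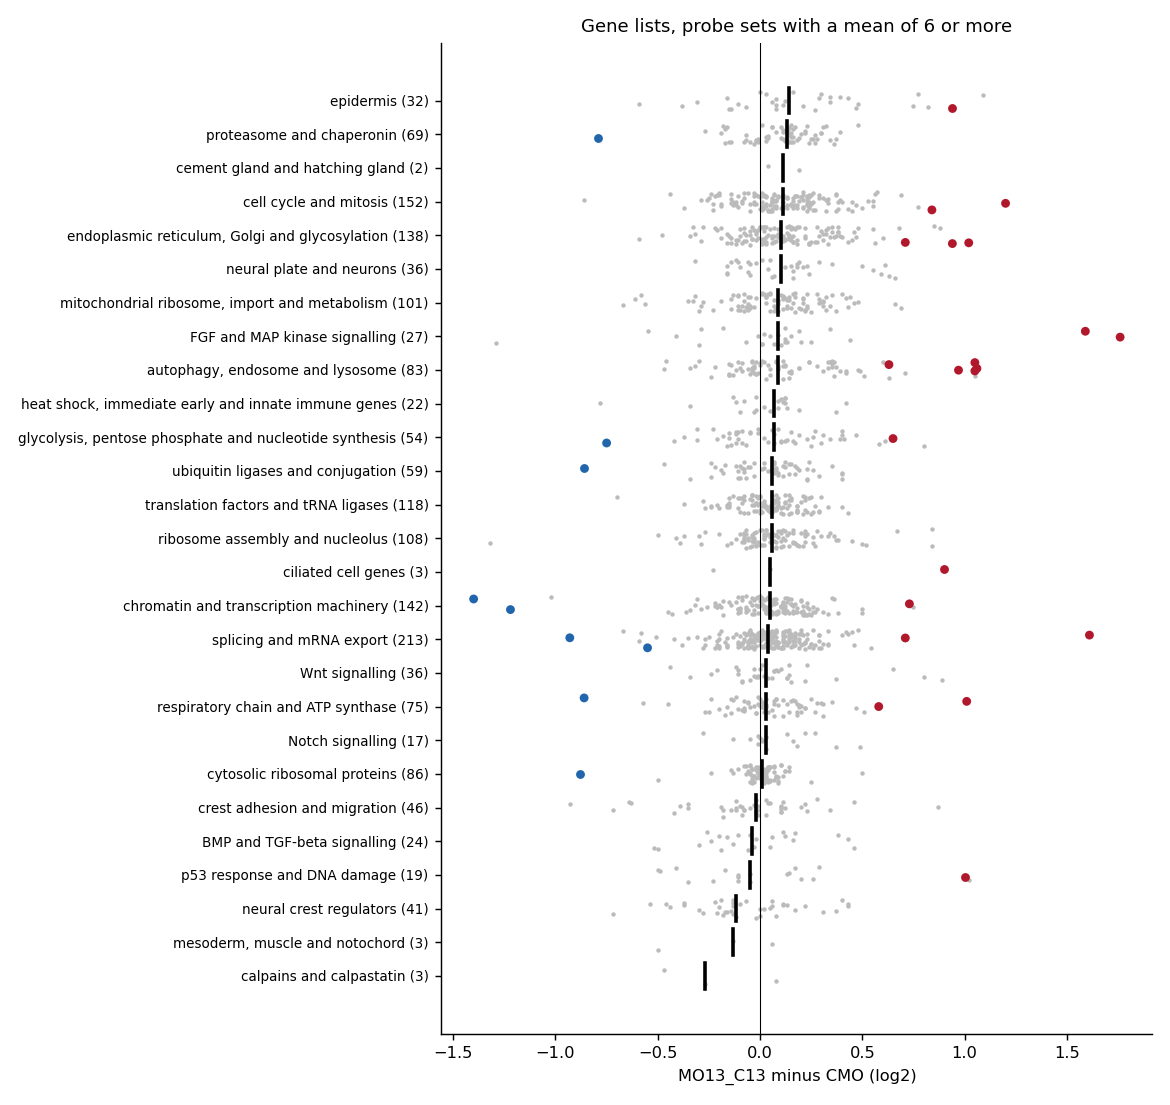
Difference between MO13_C13 and CMO (log2, horizontal) for the members of the 27 gene lists (vertical, number of members in brackets). Grey points did not pass, red and blue points passed, black bars are list medians, and the medians lie between -0.27 for the 3 calpain members and 0.14 for the epidermis list.

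The knockdown without the cytoplasmic domain was set beside these values. It shares the CMO arrays with the main comparison, so the 2 comparisons are not independent and only their own values are given. The 59 higher probe sets stood between 0.31 and 2.05 above CMO in MO13, with a median of 0.75, and 30 of them passed there, where 1.16% of all probe sets passed. The 80 lower ones stood between -2.05 and -0.26 from CMO in MO13, with a median of -0.73, and 35 of them passed there. The 139 were chosen by their distance from these same CMO arrays. Their choice alone can raise these differences and counts above those of all probe sets. Between MO13_C13 and MO13 directly, 1 probe set of the 15491 passed (0.00646%), and it belonged to adam33. Among the 139 the smallest adjusted p of that contrast was 0.721. The MO13_C13 minus MO13 difference ran from -0.56 to 0.75 for the higher probe sets (median 0.11) and from -1.05 to 0.59 for the lower (median -0.15). Its 95% interval held 0 for 45 of the 59 and 56 of the 80. A missed threshold does not show that the groups are alike. This contrast also shares the MO13_C13 arrays by which the 139 were chosen. That choice alone can shift its differences away from control.

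Individual genes took different courses. The nxf1.S probe set read 7.58, 7.17 and 7.37 in MO13, a mean of 7.37 against 7.57 in MO13_C13, with a 95% interval of the difference from -0.06 to 0.46. For riok3.S the means were 7.42 and 7.29 (95% interval -0.63 to 0.37), and for map2k1.L 7.81 and 7.82 (95% interval -0.47 to 0.49). The riok3.L copy, by contrast, averaged 7.85 in MO13 and 8.60 in MO13_C13, a further difference of 0.75 (95% interval 0.36 to 1.14). Also higher with the cytoplasmic domain than without it were cldn6.2.S, by 0.61 (95% interval 0.34 to 0.89), and ndufa8.L, by 0.59 (95% interval 0.17 to 1.02). Lower with it were serpine2.L, by -0.63 (95% interval -0.96 to -0.31), and c22orf39.L, by -0.75 (95% interval -1.29 to -0.22). Those 5 genes lay further from control in MO13_C13 than in MO13, in the same MO13_C13 arrays that served to choose them. Closer to control lay nupr1.L, at 4.93, 4.85 and 7.42 in MO13, with a mean of 5.73 against 6.32 in MO13_C13 and 7.79 in CMO (difference 0.59, 95% interval 0.18 to 1.00), and sec23ip.S, at a mean of 7.32 in MO13, 6.76 in MO13_C13 and 5.83 in CMO (difference -0.56, 95% interval -0.88 to -0.24). These intervals are unadjusted, and none of these 7 genes passed over all probe sets in that contrast.

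Where a passing probe set shared its symbol with another, the other had the same sign in 18 of 30 cases (60%), against 1685 of 2665 (63.2%) over all pairs of probe sets of a symbol. With both probe sets members, the counts were 11 of 19 (57.9%) and 665 of 983 (67.7%). Between .L and .S copies the same sign was seen in 15 of 24 cases (62.5%), against 852 of 1456 (58.5%) over all such pairs. With both copies members, the counts were 11 of 19 (57.9%) and 392 of 640 (61.2%). Among the 24 cases riok3 entered from each of its copies, and prkar1a.S entered with each of several prkar1a.L probe sets. These shares lay near those of the whole table, but 10 of the 30 cases were those of polr2i.S, with 3 of the same sign. The annotation of polr2i.S is uncertain, and pfkfb1.S entered from each of its bright probe sets, so the shares within a symbol lean on few genes. Genes where a further probe set or copy did pass in the same direction were riok3, serpine2, pfkfb1, psmd6 (through the probe set its copies share) and ccdc77, the last at 0.98 and 1.01. The agreeing probe sets of serpine2, pfkfb1 and psmd6 have names that differ only in the suffix, so they may not be separate measurements.

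Of the 139, 58 of the higher and all 80 of the lower were in the authors' deposited list of genes affected by the loss of ADAM13, which held 43.7% of the members. In the authors' deposited list that also takes in the added cytoplasmic domain stood 28 of the higher and 37 of the lower, with 1081 of the 6747 members. Both lists came from these same arrays and give no independent evidence of any direction.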

How the data were processed

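Per the submitters' processing notes, the authors processed the 9 Affymetrix arrays with Affymetrix Expression Console and GC-RMA, with versions not given in the sources used here. The deposited values are log2 intensities, 1 per probe set, and the RNA was amplified before labelling, per the labels' protocols. From these values limma 3.58.1 in R 4.3.3 (lmFit and eBayes) fitted group and experiment on all 9 arrays and 15491 probe sets, two-sided, with Benjamini-Hochberg adjustment and a threshold of 0.05. Standard errors and 95% intervals come from that fit. The fit was also run on data simulated from the same model with independent normal errors, which cannot show that the model suits these arrays. Depth has no counterpart on arrays, and 3 arrays per group limit the precision.

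The labels give each replicate number to the same experiment. This pairing by label was used as a block. Deviations from group means correlated at 0.51 to 0.73 for the 9 array pairs of an experiment. Other pairs correlated at most at -0.06. Such deviations cancel out within each group, so positive values in the pairs of an experiment force the other pairs to be negative on average. The negative values are thus no separate evidence for the pairing.

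Gene symbols came from the platform annotation, with 9227 gene identifiers matched to RefSeq and 2 symbols updated. Members, tests and the 27 gene lists were chosen with earlier results of these data known. Lists are described by counts and medians, with no test. Named were the 15 higher and 15 lower genes with the largest differences among those that passed with a single informative symbol (no LOC or MGC placeholder, which left out 3 falls) and the same sign in 3 experiments. Of the up to 4 members of each list with the smallest p only some are named, and for several lists none. Other passing genes were picked for their role after their values were seen. Alternatives were the block, the arrays used, the scaling, the level and the threshold. No sequence or coordinate was used. Some results are not reported here.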

Additional observations from a re-analysis of the deposited data

How the results depend on the processing

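Against 139 members that passed (59 higher, 80 lower), the fit with no replicate block called 9 (6 higher, 3 lower), and that on the 6 arrays of CMO and MO13_C13 without the block called 1 (1 higher, 0 lower, where 301 were lower at an unadjusted p under 0.05 in limma). With the replicate block these 6 arrays gave 117. The fits that left out an array or an experiment gave 0 to 210 in all, 0 to 92 higher and 0 to 118 lower, the fewest without experiment 2 and the most without MO13 replicate 1. A threshold of 0.1 gave 296 (129 higher, 167 lower), and one of 0.01 gave 4 (2 higher, 2 lower). With a minimum mean of 7 the higher numbered 37. The remaining settings were experiment as a random block (122), arrays centred on their medians (155), a further quantile normalization (147), a trended robust variance (193), dim probe sets left out (199), a mean of 5 or more (181) and the mean taken over 9 arrays (141). These kept the total within 1.5 times. The 9 that passed without the block included dusp18.L, nxf1.S, atg5.L and rpn2.S. The cause of these shifts was not tested. No detection calls were used, so a low level and background could not be separated.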
